A study of Mus musculus with 36 samples.

Results

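DNA methylation was compared between 3 Tet1 heterozygous (HET) and 4 wild type (WT) mouse brains at E11.5, all from dams on the control diet of 3 ppm folic acid (FA). Members were chosen by genotype and diet in the sample titles, and they make up 7 of the 36 libraries of the study. The embryos were 129S6.Cg and came from crosses of Tet1 HET parents, in which the tm1Koh allele carries an insertion cassette at the first coding exon of Tet1. All cells of a HET embryo carry 1 targeted allele, and the mothers of both groups were HET as well. Dams had been kept on the diet for 4 weeks after weaning, and the chow contained 1% of an antibiotic in all groups. Each library was 1 brain, taken from forebrain to hindbrain, and all 7 embryos were scored as normal in phenotype. The 5 homozygous knockout (KO) embryos of the same diet are given beside them for scale, and they share their WT controls with the HET embryos.

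TET1 is a dioxygenase that oxidises 5-methylcytosine (5mC) at CpG sites, which opens a path to the unmethylated base. DNA methyltransferases write 5mC with methyl groups that come from the folate and methionine cycles, so the enzyme and the diet meet at the same base. Most CpGs of a mammalian genome are methylated, CpG-dense promoters of active genes are mostly not, and regulatory regions often lie in between. Reduced representation bisulfite sequencing (RRBS) reads CpGs near restriction sites and is rich in CpG islands. After oxidative bisulfite treatment the oxidised forms of 5mC read like unmethylated cytosine, so the levels given here count 5mC alone.

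The 7 libraries held between 29.5 and 197 M (M, 1e6) CpG calls. WT replicate 1 was the deepest, with a mean of 113 reads at the CpGs compared, against 18.96 to 38.20 reads in the other 6. HET replicate 1 was labelled male, but it had 90.4 calls per 1e6 calls on the Y chromosome, near the 67.0 to 85.3 of the embryos labelled female and far from the 915 and 570 of the male WT embryos. By Y calls all 3 HET embryos were therefore female, and the WT group held 2 females (replicates 2 and 3) and 2 males (replicates 1 and 4). Both genotypes were present in 2 of the 4 litters, with HET replicate 2 beside WT replicates 1 and 2, and HET replicate 3 beside WT replicate 3. HET replicate 1 and WT replicate 4 each came from a litter without the other genotype. Results are given with and without HET replicate 1, and with Y-based sex as a covariate where this changed them.

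The targeted gene was examined first. A CpG in a Tet1 intron on chromosome 10 (mm10, position 62884019), found earlier by its contrast between WT and KO libraries, was methylated in 7 of 103, 3 of 41, 1 of 17 and 0 of 10 reads of the WT embryos. In the HET embryos, which had no part in its choice, it was methylated in 4 of 12, 3 of 10 and 9 of 19 reads, or 33.3%, 30.0% and 47.4%. The 95% Wilson interval of the least methylated HET library, HET replicate 2, ran from 10.8 to 60.3%. That of the most methylated WT library, WT replicate 2, ran from 2.52 to 19.4%, so this pair was not separated at this depth. The interval of HET replicate 3 (27.3 to 68.3%) lay above those of WT replicates 1, 2 and 3, but overlapped that of WT replicate 4 (0 to 27.8%). The interval of HET replicate 1 (13.8 to 60.9%) lay above that of WT replicate 1 alone (3.33 to 13.4%), and that of HET replicate 2 overlapped all WT intervals. The 5 KO embryos lay between 72.0 and 93.8%. By point values the HET libraries were thus intermediate at this CpG, on 10 to 19 reads each. No library of either group went against its genotype label here. For WT and KO libraries this is no check of the label, since they were used to choose the CpG. The stretch around this CpG is shown because WT and KO libraries differ there, with the measured CG in capitals (chr10:62883999-62884040, + strand, RefSeq GRCm38.p6, which is mm10).
Tet1 intron: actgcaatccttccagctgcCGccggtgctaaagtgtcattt

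Over 1224738 autosomal CpGs with 5 or more reads in each of the 7 embryos, HET brains were slightly more methylated. Mean methylation was 36.86, 37.36 and 36.81% in the HET embryos and 36.35, 35.79, 36.02 and 35.68% in the WT embryos, so that each HET embryo lay above each WT embryo. The means were 37.01% ± 0.305 (SD, n = 3) and 35.96% ± 0.295 (SD, n = 4), a difference of 1.05 points. With 35 ways to assign the embryos, the two-sided exact permutation test gave p = 0.0286, the smallest it can give, and 0.0743 after Benjamini-Hochberg adjustment over the 13 permutation tests made. The female WT embryos, at 35.79 and 36.02%, lay between the male ones at 35.68 and 36.35%, so the HET embryos, all female by Y calls, were above WT embryos of either sex. Without HET replicate 1 the difference was 1.13 points. In the litters with both genotypes, HET embryos were higher by 1.29 and 0.788 points. The size depends on equal weight for the same CpGs. With each embryo's own set of covered CpGs it was 0.353 points (p = 1 in the exact test), and with reads pooled over CpGs, where deep sites weigh more, 1.72 points (p = 0.343).

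The gain per CpG was largest in the class of partly methylated CpGs. CpGs were put in classes by their level in WT libraries of the 30 and 0.1 ppm diets, which are not part of the comparison. Of these 5 libraries, WT replicate 2 of each diet has Tet1 values that go against its label, and without both the differences were 2.82, 4.48 and 1.23 points in the classes of 5 to 20%, 20 to 80% and over 80%. The class under 5%, with 657757 CpGs, had 0.757, 0.771 and 0.812% in HET and 0.780, 0.721, 0.890 and 0.710% in WT embryos. These groups overlapped fully, and the exact permutation test gave p = 1. In the class of 5 to 20%, HET embryos had 11.0, 11.6 and 11.3% and WT embryos 9.16, 8.63, 8.89 and 8.28%. In the class of 20 to 80%, with 149944 CpGs, HET embryos had 64.0, 65.9 and 64.1% and WT embryos 61.2, 59.8, 60.1 and 59.0%. The differences of these 2 classes were 2.55 and 4.71 points, with no overlap of the groups (p = 0.0286 and 0.0743 after adjustment for both, exact permutation test). CpGs over 80% differed by 1.27 points (p = 0.0571 and 0.124 after adjustment, exact permutation test), although the 3 HET embryos also lay above all WT embryos there. Their WT mean was 90.4%, so they had less room to gain than the other classes. The class of 20 to 80% held 12.2% of the CpGs and contributed 0.576 of the 1.05 points, and the class over 80% held 30.7% and contributed 0.390 points.

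**Figure D1:**
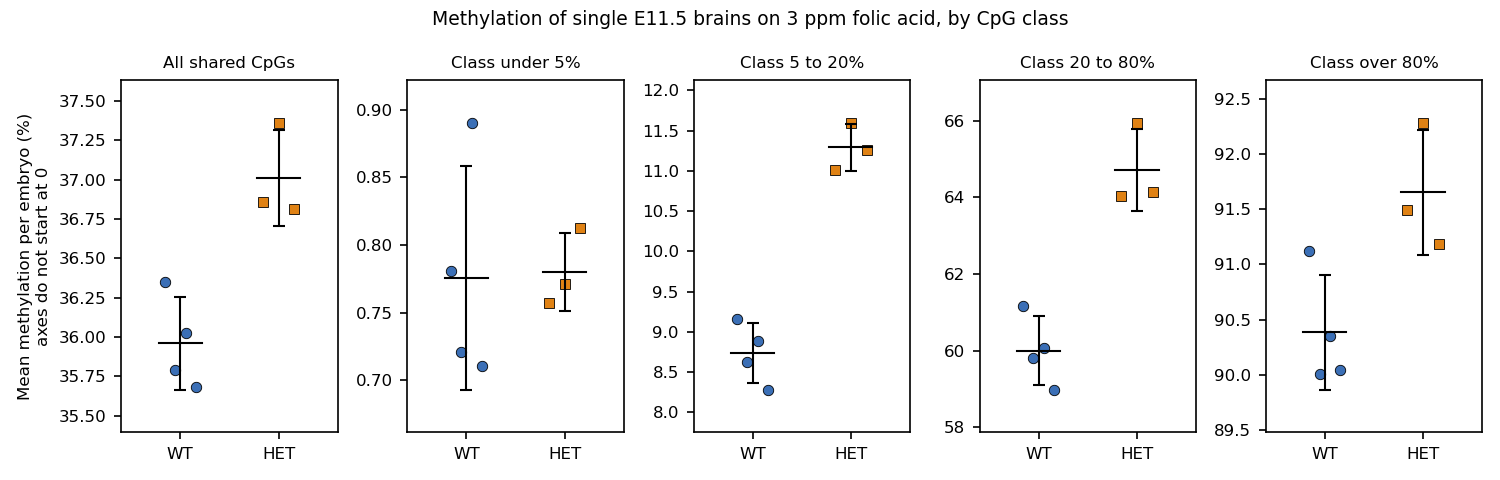
Mean methylation (%) of each E11.5 brain on 3 ppm FA over all shared autosomal CpGs and by class of CpG, with 1 point per embryo, the group mean as a line and the SD as a bar; axes do not start at 0. The 3 HET embryos lie above the 4 WT embryos in each panel but the class under 5%, with differences of 2.55, 4.71 and 1.27 points in the other classes.

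Regions that gain methylation in KO embryos were higher in HET embryos as well. The authors' lists of regions hypermethylated in KO on the 30 and 0.1 ppm diets were used, since no embryo of the 3 ppm diet entered them. At 72636 CpGs of the 30 ppm list, HET brains had 34.94, 36.21 and 35.55% and WT brains 31.7, 30.8, 30.7 and 30.0%. KO brains of 3 ppm had between 48.5 and 50.6%. All HET values were above all WT values and below all KO values. The difference between HET and WT was 4.75 points (p = 0.0286, the smallest possible, and 0.0743 after adjustment, exact permutation test), which is 25.7% of the 18.5 points between KO and WT. At 64059 CpGs of the 0.1 ppm list it was 4.53 points with the same p, or 24.5% of the KO difference. Both values come from the same 7 embryos and from lists that can overlap, so they are not separate evidence. The CpG class of 20 to 80%, taken without regard to KO, differed by 4.71 points between HET and WT. Whether the KO regions differ more than other CpGs of like level was not tested. Without HET replicate 1 they were 5.07 and 4.83 points.

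The autosomes were then divided into 1 kb tiles, and 69097 tiles with at least 3 shared CpGs and a standard deviation of at least 2 points over the embryos were tested. The test was a quasi-binomial logistic model of methylated and unmethylated calls. Calls needed both an adjusted p under 0.05 and group means at least 10 points apart. In HET embryos 556 tiles were hypermethylated (hyper), or 0.805% of those tested, and 5 were hypomethylated (hypo), or 0.00724%. Called tiles were thus rare and almost all in 1 direction. Of the hyper tiles, 499 had every HET embryo above every WT embryo, a pattern seen in 7586 of all tested tiles (11.0%). The reverse pattern, every HET embryo below every WT embryo, was seen in 638 tiles (0.923%), 3 of them called hypo. The median tile differed by 2.15 points and 50291 tiles (72.8%) were on the HET side. The tested tiles were thus shifted as a set, and the called tiles lie at the far end of it. The filter on the standard deviation, which a difference between the groups helps to pass, bears on this shift. Over the 102891 tiles without it the median difference was 0.734 points, and 392 tiles were hyper and 4 hypo.

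In the hyper tiles the median methylation level was 42.6% in WT and 59.0% in HET, with a median difference of 13.9 points and a largest difference of 32.9. Only 63 of the 556 tiles differed by 20 points or more, and 376 tiles passed the adjusted p on the HET side with under 10 points. The number of calls depended on the test. With litter as a replicate block it was 226, and with Y-based sex as a covariate 429, of which 415 were also at least 10 points above the female WT embryos. limma on arcsine levels takes no account of reads, and its error is the spread between embryos, moderated across tiles. It called 1 tile, the one in Gnaz, and 38 of the tiles named below lost their call there. In that test 2969 tiles had an unadjusted p under 0.05 and at least 10 points (2333 in the quasi-binomial test). In the quasi-binomial test the count was 837 without WT replicate 1, the deepest library, and 584 without HET replicate 1. In both of these fits each tile was given a measure of spread shared by all tiles in place of its own.

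Hyper tiles were found where WT brains are partly methylated and where CpGs are dense. By the level in WT libraries of other diets, 5.04% of tiles at 20 to 40% and 3.78% at 40 to 60% were hyper in HET. For tiles over 80% this was 0.0534%, and 0 of 779 tiles under 5% were called. A tile close to full methylation in WT cannot gain the 10 points that a call needs, which limits the share over 80%. The median difference was also larger in these middle classes, at 4.62 and 4.98 points, than over 80% (1.57 points) and under 5% (1.29 points). Without the 2 WT libraries that go against their label, 5.28 and 3.19% of tiles in the middle classes were hyper, as were 1.96% in place of 0.951% at 5 to 20%, 0.0386% over 80% and 1 of 1072 tiles under 5%. Tiles with over 50 CpGs per kb of reference were hyper in 4.73% of cases and tiles with 10 or fewer in 0.0643%. Density also sets how many CpGs, and so how many calls, a tile has. The share of hyper tiles was 0.110% with 3 measured CpGs and 5.65% with over 10, while the median difference over these classes was between 1.90 and 3.06 points.

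Of the tested promoter tiles, within 1 kb of a transcription start site, 156 of 11128 (1.40%) were hyper, as were 166 of 13171 exon tiles. The share was 0.441% for intron tiles and 0.590% for tiles between genes. Among tiles with over 20 CpGs per kb the shares were 2.32% for promoters, 2.53% for exons, 1.36% for introns and 1.57% between genes. Within 10 Mb of Tet1, where DNA linked to the targeted allele lies, 8 of 764 tiles (1.05%) were hyper. On the rest of chromosome 10 it was 20 of 3296 (0.607%), and on the other autosomes 0.812%. The called tile of Unc5b (start 60780001) lies inside this window around the Tet1 tile (start 62884001), and that of Gnaz (start 74991001) outside it on the same chromosome. The paper states that the allele was made in another mouse strain and then backcrossed. Whether linked sequence of that strain bears on the calls of this chromosome was not tested.

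**Figure D2:**
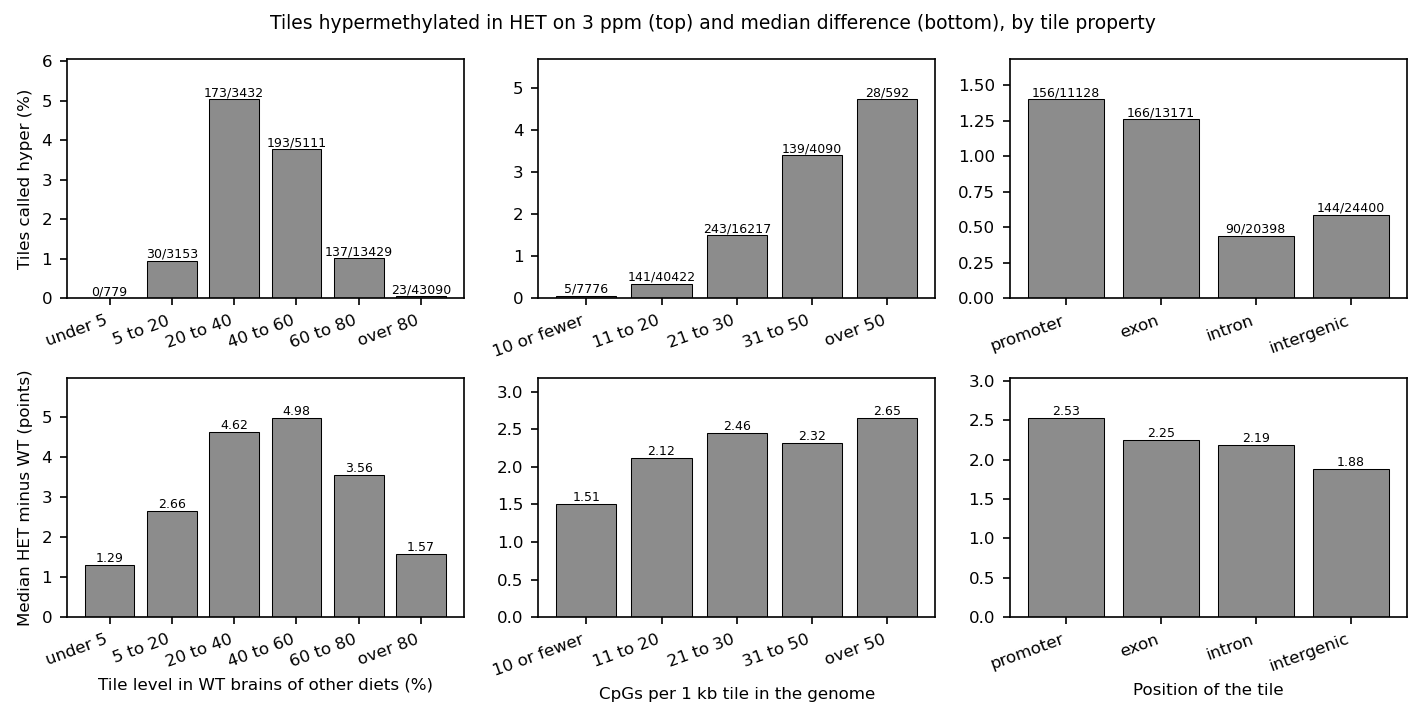
Share of tested tiles called hyper in HET on 3 ppm (top, %) and median difference between HET and WT (bottom, points), by level in WT brains of other diets, by CpGs per 1 kb in the genome and by position. Numbers over the upper bars are called and tested tiles. Calls peak at 5.04% of tiles in the class of 20 to 40% and at 4.73% of tiles with over 50 CpGs.

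The 20 leading hyper tiles, with the largest differences among those without overlap and at most 1 per gene, differed by 23.6 to 32.9 points. Since they were ranked by this difference, their values are a description. A tile takes the name of the gene with the nearest start site. Of the 20, 5 lay in promoters, 5 in exons, 3 in introns and 7 between genes. KO embryos share the WT controls, so their values are only set beside those of the HET embryos.

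The largest difference was in Spata18, which encodes a protein of mitochondrial quality control that is abundant in testis. HET embryos had 52.1, 77.8 and 58.9% and WT embryos 35.8, 26.6, 33.3 and 24.3%, on 54 to 673 calls per embryo. KO embryos had between 70.7 and 88.7%. HET embryos thus lay between the other genotypes with some overlap with KO, and varied more among themselves than WT embryos did. The difference was 32.9 points (adjusted p = 9.52e-06, quasi-binomial test). All 9 measured CpGs had a higher mean in HET, by 21.1 to 44.3 points, and at 7 of them every HET embryo was above every WT embryo. CpGs this close share reads, so they are not 9 separate measurements. They lie in a coding exon, 10240 bp from the start site, while a tile at the promoter of the gene (55.2% in HET and 49.2% in WT, adjusted p = 0.609) was not called. The stretch of chr5:73669570-73669681 (+ strand, RefSeq GRCm38.p6) is printed because it holds the largest change, with measured CGs in capitals.
Spata18 coding exon: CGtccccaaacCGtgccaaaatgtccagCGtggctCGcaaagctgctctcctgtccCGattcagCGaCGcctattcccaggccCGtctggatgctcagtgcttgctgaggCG

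The tile in Gnaz had the most even change. This gene encodes the alpha subunit of the G protein Gz, which is found mostly in neurons. HET embryos had 90.9, 92.6 and 89.9%, WT embryos 59.7, 63.4, 62.2 and 62.6%, and KO embryos 92.2 to 100%. The groups were far apart relative to their spread, 91.1% ± 1.34 (SD, n = 3) against 62.0% ± 1.58 (SD, n = 4), and the HET level was 83.3% of the way from WT to KO. The difference of 29.2 points had an adjusted p = 7.70e-10 (quasi-binomial test), and it was the only tile called in all alternatives that could test it. All 12 measured CpGs had a higher mean in HET, by 12.4 to 45.0 points. They lie around the start codon (chr10:74991412-74991646, + strand, RefSeq GRCm38.p6, 660 bp from the nearest start site), shown because every alternative kept this call, with measured CGs in capitals.
Gnaz start codon: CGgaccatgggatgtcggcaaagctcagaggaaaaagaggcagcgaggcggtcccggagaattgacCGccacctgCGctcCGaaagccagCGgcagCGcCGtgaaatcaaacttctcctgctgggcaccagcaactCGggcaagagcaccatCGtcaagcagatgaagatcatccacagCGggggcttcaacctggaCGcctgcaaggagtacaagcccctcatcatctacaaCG

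The tile with the smallest p was in the coding exon of Zfp467, a zinc finger protein gene. It had 43.06, 46.91 and 45.64% in HET, 18.5, 21.9, 22.7 and 21.1% in WT and 81.0 to 89.0% in KO, on 842 to 4383 calls per embryo. No values of the 3 genotypes overlapped, and HET lay nearer to WT than to KO. The difference was 24.2 points (adjusted p = 5.99e-21, quasi-binomial test), and all 35 measured CpGs had a higher mean in HET. A tile in exon 5 of Spatc1, which encodes the centrosomal protein speriolin of male germ cells, was also intermediate. It had 44.16, 44.09 and 36.36% in HET, 23.4, 13.9, 15.7 and 17.8% in WT and 75.1 to 87.2% in KO. This tile is nearest to the start site of Smpd5 and appears under that name in the plot of leading tiles. Its difference was 23.8 points (adjusted p = 1.59e-05, quasi-binomial test), with all 13 CpGs higher in HET. The CpG-dense parts of both exons are printed because the 3 genotypes separate there without overlap, at chr6:48438294-48438479 and chr15:76292282-76292470 (+ strand, RefSeq GRCm38.p6), with measured CGs in capitals.
Zfp467 coding exon: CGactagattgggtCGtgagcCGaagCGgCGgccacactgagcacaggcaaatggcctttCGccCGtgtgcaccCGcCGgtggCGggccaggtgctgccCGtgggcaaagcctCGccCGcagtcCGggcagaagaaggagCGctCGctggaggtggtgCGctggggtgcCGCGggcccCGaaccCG
Spatc1 exon 5: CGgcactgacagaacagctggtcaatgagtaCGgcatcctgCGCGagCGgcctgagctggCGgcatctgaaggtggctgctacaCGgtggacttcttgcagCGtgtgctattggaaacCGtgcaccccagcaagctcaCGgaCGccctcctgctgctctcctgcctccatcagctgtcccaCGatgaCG

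**Figure D3:**
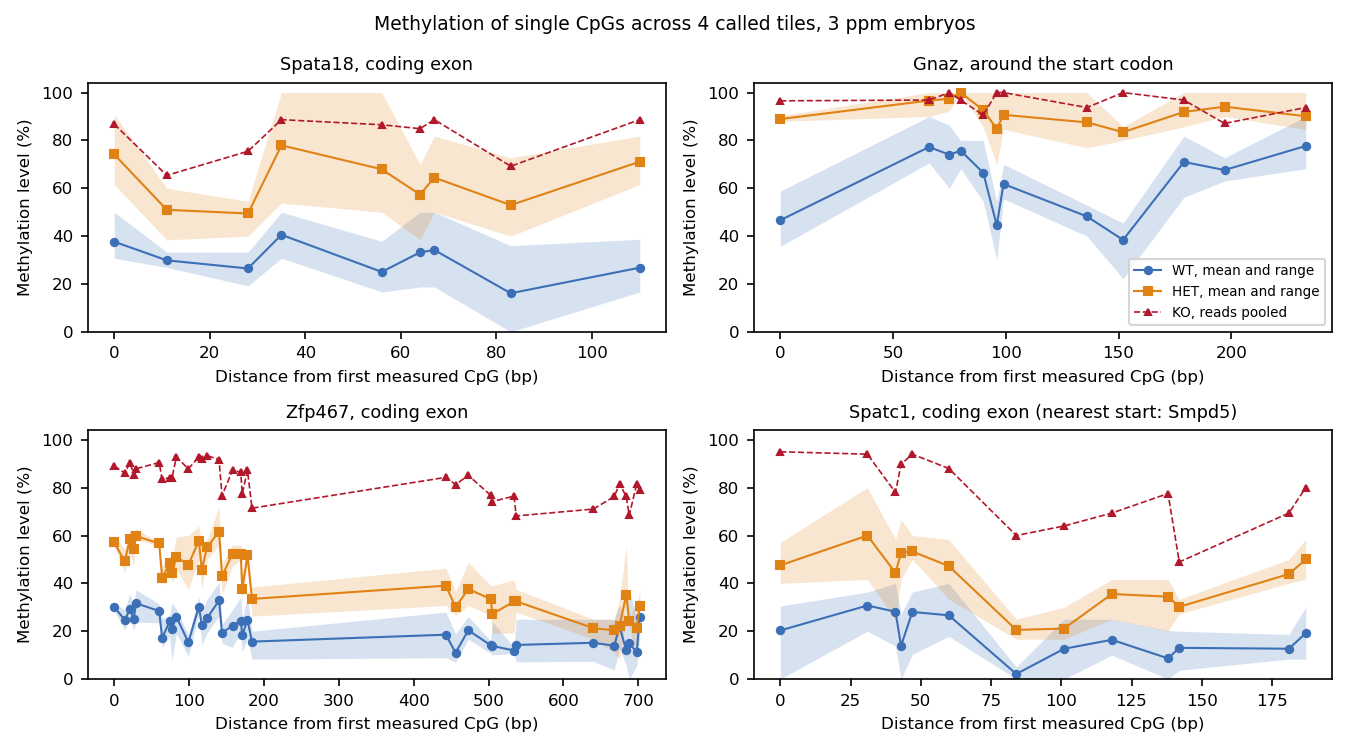
Methylation level (%) of single CpGs against the distance (bp) from the first measured CpG in 4 hyper tiles, with the mean and range of the 3 HET and 4 WT embryos and the pooled calls of the 5 KO embryos. HET means lie above WT means at all 9 CpGs of Spata18, 12 of Gnaz, 35 of Zfp467 and 13 of Spatc1.

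At Tet1 itself 1 of 8 tested tiles was hyper. This intronic tile, of 3 CpGs with the one examined above among them, had 59.1, 56.2 and 54.9% in HET and 30.4, 19.8, 27.27 and 38.71% in WT, with 86.7 to 91.7% in KO. The difference was 27.7 points (adjusted p = 0.00168, quasi-binomial test), and the call was lost with litter as a block. HET embryos carry both a targeted and an intact Tet1 allele, so a change on either cannot be told apart from a difference between them. The other tiles of Tet1 had adjusted p between 0.410 and 0.992, the promoter tile among them (9.78% in HET and 5.70% in WT).

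The other leading tiles lay in or near genes of varied function. Igfbp5, which encodes a binding protein of insulin-like growth factors, had a tile 3617 bp from its start site with 58.1, 85.3 and 67.2% in HET and 53.7, 46.2, 33.3 and 25.0% in WT, a difference of 30.6 points. Both groups were widely spread and came close to each other, and the call was lost without HET replicate 2. Hilpda, a hypoxia-induced gene of lipid droplets, had 68.5, 62.3 and 68.6% in HET and 47.4, 58.0, 20.8 and 24.6% in WT at a promoter tile. Its WT embryos spread widely, those of the litter shared with HET replicate 2 being the highest, and the call was lost with litter as a block, with sex as a covariate and without HET replicate 3. A tile with its nearest protein-coding start site at Gata5 (a zinc finger factor of heart and endoderm, 54802 bp away) had 62.7, 75.7 and 60.3% in HET and 40.7, 35.7, 40.0 and 37.0% in WT. WT embryos were close together there, and the difference of 27.8 points had an adjusted p = 0.00173 (quasi-binomial test), but this call too was lost with litter as a block.

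The promoter of Tcf4, an E protein that pairs with proneural bHLH factors, had 65.7, 50.0 and 51.0% in HET and 35.7, 21.8, 28.6 and 31.3% in WT. Its difference was 26.2 points over 4 CpGs, and the call was lost without HET replicate 1, without HET replicate 3 and with litter as a block. A coding exon of Zbtb7c, a BTB zinc finger gene, was more stable, with 67.5, 65.4 and 67.2% in HET, 34.7, 42.2, 49.8 and 36.9% in WT and 81.8 to 87.1% in KO over 22 CpGs (adjusted p = 3.27e-15, quasi-binomial test). The exon of Itpka, a neuronal kinase of inositol trisphosphate, had 77.8, 72.0 and 73.0% in HET and 46.7, 54.2, 50.9 and 49.4% in WT. Its nearest start site is that of Ltk. Among the rest, tiles near Oprd1, the delta opioid receptor gene, and in Phactr1, which encodes a regulator of actin and of protein phosphatase 1, rested on as few as 30 and 35 calls in an embryo and lost the call with litter as a block, with sex as a covariate and without HET replicate 1, HET replicate 3 or WT replicate 4. The tile near 4932438H23Rik was the one where the KO mean (73.4% in 3 embryos with enough calls) did not exceed the HET mean of 82.0%, and its call was lost with litter as a block, with Y-based sex as a covariate and without HET replicate 1, HET replicate 2 or WT replicate 4. The tile near 1110002E22Rik lost the call with litter as a block, with Y-based sex as a covariate and without HET replicate 1 or 2. Near Hs1bp3 it was lost without HET replicate 2 or 3, and near Psmd7 with litter as a block. The Gm1043 tile lost it with litter as a block and without HET replicate 2. The tiles of Erich3 and Fam169b lost it with limma alone.

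**Figure D4:**
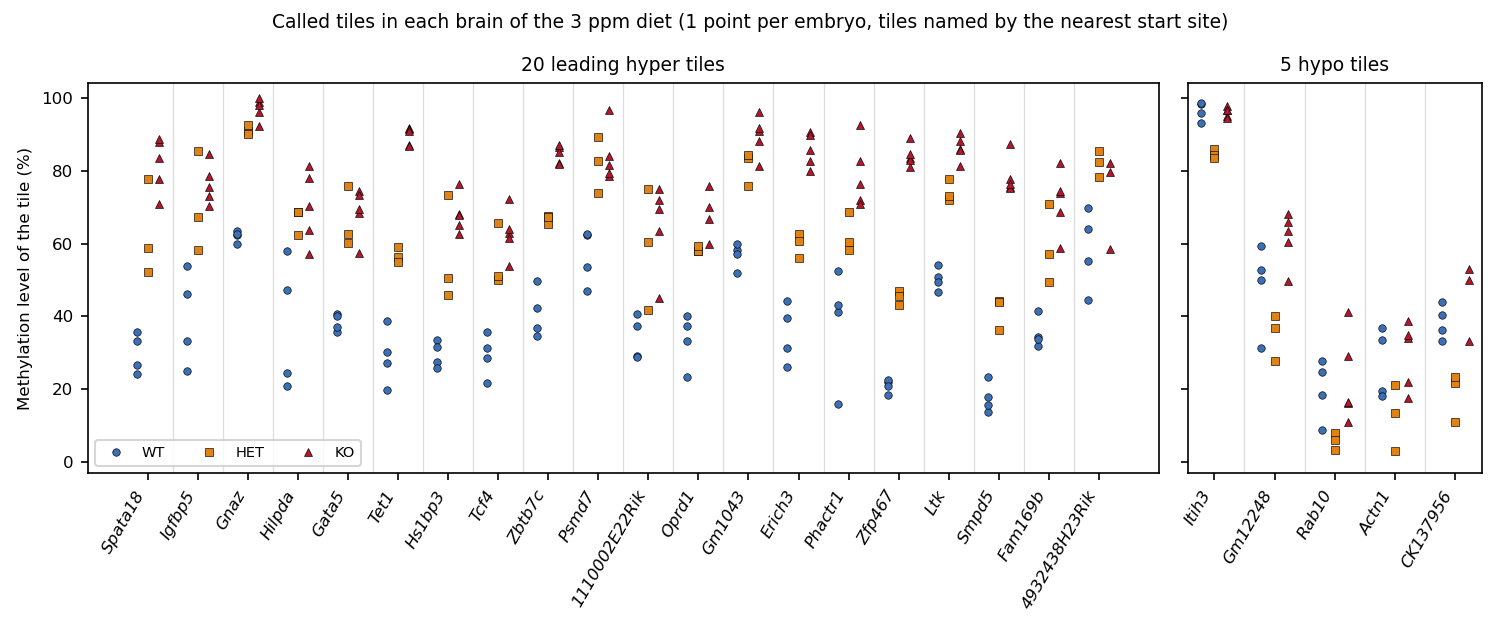
Methylation level (%) of the 20 leading hyper tiles and the 5 hypo tiles in each brain on 3 ppm FA, with 1 point per embryo and genotype by colour and shape. In each of the 20, the 3 HET embryos lie above the 4 WT embryos, by 23.6 to 32.9 points on average, with KO embryos beside them.

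Gene lists fitting the tissue, the enzyme and the diet were then counted. The lists were chosen with earlier results of these data known, so their shares are a description. Of 14291 protein-coding genes with a tested tile, 479 (3.35%) had at least 1 hyper tile. The list of germline genes, a class often silenced in the soma by promoter methylation, had 4 of 47 genes with a hyper tile. These were Spata18, Spaca1, Tuba3a and Piwil1. The called tiles of Spata18 and Tuba3a lie 10240 and 5541 bp from the nearest start site and not in promoters. The median difference over the 138 tiles of the list was 2.28 points, against 2.15 over all tiles. Whether methylation silences the 4 genes in these brains was not tested. The promoter of Spaca1, a gene of the sperm acrosome, had 31.5, 27.1 and 30.3% in HET, 14.0, 8.70, 17.3 and 18.9% in WT and 65.9 to 76.0% in KO (adjusted p = 4.19e-05, quasi-binomial test). Spaca1 did not overlap between genotypes, and HET lay 25.7% of the way to KO. A tile of Tuba3a, a testis tubulin gene, had 70.1, 72.2 and 72.1% in HET and 54.2, 56.5, 63.0 and 49.3% in WT, and its call was lost with litter as a block, with sex as a covariate and without any 1 HET embryo or WT replicate 1. Piwil1, which acts in the piRNA pathway, differed by 11.6 points. With litter as a block 2 genes of the list, Spata18 and Spaca1, had a hyper tile, so the call of Piwil1 was lost too.

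Enzymes and readers of DNA methylation had 3 of 26 genes with a hyper tile. Beside Tet1 these were Zbtb4, whose protein binds methylated CpGs, with 57.28, 61.63 and 55.37% in HET against 40.9, 32.3, 39.8 and 44.0% in WT, and Smug1, a glycosylase of oxidised and deaminated bases, with 42.0, 37.3 and 37.7% against 24.1, 27.0, 29.0 and 29.1%. Neither overlapped between groups, and all 3 genes lost the call with litter as a block. The median difference over the 87 tiles of the list was 2.84 points. Tet1 is the targeted gene, and its tile holds the CpG found by its contrast between WT and KO libraries.

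The WNT pathway had 4 of 50 genes with a hyper tile. Among its ligands, an intron of Wnt3a had 28.14, 38.62 and 41.67% in HET, 18.9, 18.4, 21.6 and 14.5% in WT and 68.6 to 82.0% in KO (17.8 points, adjusted p = 3.17e-07, quasi-binomial test). An exon of Wnt7b had 89.9, 87.7 and 85.3% in HET, 73.6, 69.3, 76.4 and 71.1% in WT and 87.5 to 91.1% in KO. HET reached the KO range at Wnt7b, at 89.8% of the way, but stayed well below it at Wnt3a, at 30.2%. Among the receptors, the single-exon gene Fzd9 differed by 10.9 points and Fzd5 by 10.6. The difference of Fzd9 was 8.80 points without HET replicate 1 and 9.27 without WT replicate 4, under the limit for a call, and HET embryos lay 8.70 points above the female WT embryos. The call of Fzd9 was also lost with litter as a block and at a minimum of 10 reads.

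Axon guidance genes had 2 of 67 genes with a hyper tile, near the share of all genes. The ephrin receptor gene Epha8 had 39.8, 52.4 and 46.5% in HET and 30.4, 32.5, 30.6 and 23.7% in WT, and the netrin receptor gene Unc5b 67.7, 81.5 and 80.5% against 63.1, 60.5, 63.5 and 60.1%. Unc5b kept its call with litter as a block, and Epha8 lost it there, with Y-based sex as a covariate and without HET replicate 2 or 3. Potassium channel genes had 4 of 74, among them Kcne1, Kcng4 and Kcnh2, with differences between 13.2 and 16.9 points, and the call of Kcne1 was lost with litter as a block. Kcng4, which encodes a modifier subunit, had 47.4, 50.7 and 53.0% in HET and 36.05, 36.61, 39.47 and 33.63% in WT over 29 CpGs. Of the mesoderm, muscle and heart genes 2 of 44 had a hyper tile. These were Mef2c, a MADS-box factor also used in neurons, with 66.1, 70.6 and 65.0% against 54.0, 49.3, 49.8 and 51.4%, and Tbx5, a T-box factor of heart and limb, with 20.9, 30.3 and 23.0% against 14.63, 11.45, 10.55 and 12.61%. The Tbx5 difference was 9.65 points without HET replicate 2, and it was not called then. Of the bHLH list 1 of 19 genes, Tcf4, had a hyper tile.

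In 7 lists no gene had a hyper tile. These were the imprinted genes (39 genes with a tested tile, median difference 1.83 points), the one-carbon and folate genes (36 genes, 1.72 points), the regulators of cranial neural tube closure (49 genes, 2.11 points), the Sonic hedgehog pathway (20 genes, 2.48 points), homeobox and PAX factors of brain patterning (32 genes, 1.95 points), pluripotency genes (24 genes, 2.73 points) and Hox genes (13 genes, a median of -0.59 points over 14 tiles). Tiles in or within 5 kb of these imprinted genes had every HET embryo above every WT embryo in 6 of 176 cases (3.41%), against 11.0% of all tested tiles. At 39 genes a share of 3.35% gives few calls, so 0 in a list of this size is close to what all genes show. Without HET replicate 1, 1 imprinted gene had a hyper tile, and axon guidance genes had 4 in place of 2.

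The 5 hypo tiles were heterogeneous, and at 1 of them the sexes did not overlap in the other diets. The tile at exon 1 of Rab10os, an antisense RNA gene whose nearest protein-coding neighbour is Rab10, had 8.18, 6.03 and 3.40% in HET and 27.8, 8.96, 18.6 and 24.8% in WT, on 32 CpGs. Every HET embryo was below every WT embryo, and the difference was -14.2 points (adjusted p = 4.31e-09, quasi-binomial test). The male WT embryos, at 27.8 and 24.8%, were above the female ones, at 8.96 and 18.6%. In the 23 embryos of the other diets used here, sexed by Y calls, 12 males had between 23.5 and 39.2% and 11 females between 7.81 and 20.8%, without overlap and over 3 genotypes. On 3 ppm the KO females had 16.2 and 16.6% and the KO males 11.06, 29.25 and 41.24%. The male at 11.1% had Y calls of a male (471 per 1e6) but an X chromosome in which 32.3% of CpGs lay at 20 to 80%, near the 31.2 to 36.8% of the females and not the 8.58 to 12.0% of the other males of the diet. This embryo, KO replicate 4, came from the same litter as HET replicate 1, whose Y calls go against its sex label, and whether samples of the litter were exchanged or mixed was not tested. With Y-based sex as a covariate the adjusted p was 0.000283 (quasi-binomial test), and the HET embryos lay below both female WT embryos. Against these alone, however, the HET mean of 5.87% differed by -7.89 points from 13.8%, under the limit for a call. The part of the tile with most CpGs is printed because sex moved with its level (chr12:3235441-3235715, + strand, RefSeq GRCm38.p6), with measured CGs in capitals.
Rab10os exon 1: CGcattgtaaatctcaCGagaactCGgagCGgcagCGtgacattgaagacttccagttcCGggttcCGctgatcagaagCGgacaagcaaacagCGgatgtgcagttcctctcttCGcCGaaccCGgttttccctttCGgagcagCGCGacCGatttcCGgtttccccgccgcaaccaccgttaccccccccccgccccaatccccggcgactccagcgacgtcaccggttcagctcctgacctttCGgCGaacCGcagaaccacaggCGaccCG

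A coding exon of Actn1, which encodes an actin crosslinker, had 21.1, 13.6 and 3.19% in HET and 33.5, 19.70, 36.74 and 18.23% in WT. These groups overlapped, and the difference of -14.4 points was -9.66 without HET replicate 3, under the limit for a call. In other diets males had 41.1% and females 24.8% on average, a difference of 16.3 points, with overlap. A tile with its nearest protein-coding start site at CK137956, 211450 bp away, had 10.9, 21.9 and 23.3% in HET and between 33.3 and 44.0% in WT, on 4 CpGs within 41 bp. Its groups did not overlap (-19.8 points, adjusted p = 0.00364, quasi-binomial test), and it lost the call with litter as a block, with Y-based sex as a covariate and without HET replicate 1. Near Itih3, an inhibitor heavy chain gene, HET had 85.9, 84.4 and 83.3% and WT 95.8, 93.0, 98.2 and 98.6%, while KO had 94.4 to 97.7%. This call was lost with litter as a block, with sex as a covariate and without HET replicate 2 or 3. The tile in the pseudogene Gm12247, near Gm12248, had a difference of -13.5 points although no single CpG of its 9 differed by more than -9.99 and 4 were higher in HET. The pooled level weights each CpG by its calls, which differ between embryos, and with a minimum of 10 reads its difference was 1.54 points, in the other direction. Its call was also lost with litter as a block, with Y-based sex as a covariate and without HET replicate 1 or WT replicate 2.

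The tiles called hyper on 3 ppm were then read in embryos of the other diets, which had no part in their choice. Here 2 libraries labelled WT and 1 labelled KO go against their labels at the Tet1 CpG. They are WT replicate 2 and KO replicate 1 of 30 ppm and WT replicate 2 of 0.1 ppm. Over the whole Tet1 tile, WT embryos had 28.4 to 59.7% and HET embryos 42.2 to 58.7% on 30 ppm, with overlap. On 0.1 ppm these were 34.4 to 49.0% and 51.9 to 75.6%. On 30 ppm the 5 HET embryos had 49.36, 50.15, 49.99, 49.18 and 51.26% over 542 of these tiles, and the embryos labelled WT 40.9, 52.7 and 41.1%. The HET embryos were tightly grouped, above 2 WT libraries and below the library labelled WT replicate 2. The difference was 5.11 points (p = 0.143 and 0.258 after adjustment, exact permutation test). Without that library, the only WT library above the HET embryos, the difference was 9.01 points. The groups then did not overlap, and p = 0.0476 (exact permutation test, with no adjustment) is the smallest that test can give. Leaving out that library fixes this outcome, so this p adds nothing to the test with all libraries. The Tet1 CpG by which the library goes against its label lies in 1 of the called tiles. Over all tested tiles the 30 ppm difference was 1.40 points. The 5 KO embryos in keeping with their label had 68.4 to 71.6% and the library labelled KO replicate 1 had 49.1%, near the HET embryos. The study's sample list gives this embryo as HET, against its title, and it was kept out of the HET group here.

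On 0.1 ppm, HET embryos had, without HET replicate 2, which the study left out, 51.3 and 53.2% and embryos labelled WT 40.0 and 54.4%, the latter in the library labelled WT replicate 2. This WT embryo was scored with a brain malformation. KO embryos had 71.7 to 73.5%. The difference of 4.98 points (2.72 over all tested tiles) gave p = 1 in the exact permutation test, which with 2 against 2 embryos cannot go under 0.333. The direction rests on the WT libraries, since it was 12.2 points without WT replicate 2 and -2.23 without WT replicate 1. Tile by tile, the HET mean was above the WT mean in 461 of 538 tiles on 30 ppm (85.7%, against 59.1% of all tested tiles) and in 434 of 546 on 0.1 ppm (79.5%, against 67.0%). The tiles were chosen on 3 ppm. At their CpGs shared with the KO embryos of that diet, HET embryos had 54.4, 56.3 and 55.1%, WT embryos 41.9, 40.8, 41.9 and 39.9% and KO embryos 72.1 to 74.4%. Of the 20 leading tiles, 18 had a higher HET than WT mean on 30 ppm and 15 on 0.1 ppm.

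**Figure D5:**
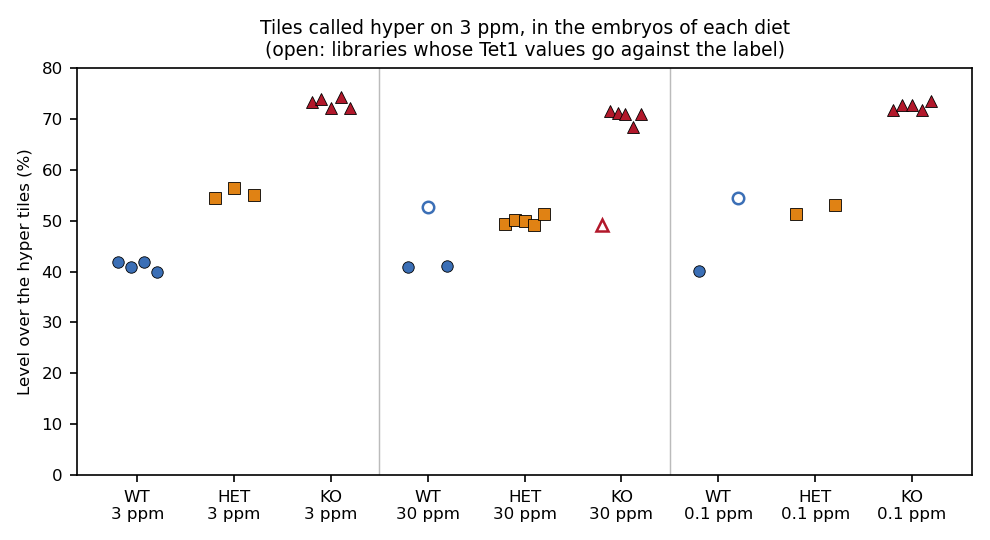
Methylation level (%) pooled over the tiles called hyper in HET on 3 ppm, in each embryo of the 3 diets, with open symbols for libraries whose Tet1 values go against their label. The 3 ppm embryos chose the tiles; on 30 ppm the 5 HET embryos lie between 49.2 and 51.3%, above 2 WT libraries at 40.9 and 41.1%.

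The authors' own regions for HET against WT on 3 ppm gave a like result in the other diets. These regions were called on the same 3 ppm embryos as the tiles, so this is not separate evidence. At the authors' hyper regions HET embryos of 30 ppm were 3.09 points above those labelled WT and HET embryos of 0.1 ppm 4.04 points. At the authors' hypo regions HET embryos were above WT by 2.05 and 3.71 points, opposite to the direction in which these regions were listed. Over all tested tiles HET embryos were above WT by 1.40 points on 30 ppm and 2.72 on 0.1 ppm. None of these 4 differences passed the exact permutation test (adjusted p between 0.258 and 0.788). The sizes rest on single WT libraries. Without WT replicate 2, which goes against its label in both diets, the hyper regions differed by 5.63 points on 30 ppm and 7.67 points on 0.1 ppm. The hypo regions then differed by 3.13 and 4.36 points. On 30 ppm the exact permutation test gave p = 0.0476 for both, with no adjustment, the smallest it can give for these embryos. WT replicate 2 was the only WT library above or within the HET range there. Leaving it out thus fixes this p, which adds nothing to the tests with all libraries. The hyper regions differed by 1.98 points on 30 ppm and 0.405 points on 0.1 ppm without WT replicate 1, and on 30 ppm, without WT replicate 3, the hyper regions by 1.66 and the hypo regions by 0.684 points.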

How the data were processed

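Libraries were single E11.5 brains digested with MspI and TaqI and treated by oxidative bisulfite. Per the labels and the study's methods, the authors trimmed reads with Trim Galore 0.6.10, aligned them to mm10 with Bismark 0.24.1 and removed duplicates by molecular identifiers with UMI-tools. The deposited table of each library gives the methylated fraction and the read coverage of each CpG, and fraction times coverage gave whole counts. Both strands are joined on 1 line, by a step not given in the sources used here. The authors' lists of differentially methylated regions, made with methylKit 1.26.0, were deposited as positions, and only positions were used.

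Autosomal CpGs with 5 or more reads in each of the 7 embryos were grouped into 1 kb tiles. Dispersions of the quasi-binomial fit were moderated across tiles by the method of limma's squeezeVar (prior degrees of freedom 49.9) and kept from going under 1. In fits without 1 embryo the prior degrees of freedom were 278 without HET replicate 3 and infinite otherwise, as they were with thinning. Infinite degrees give all tiles 1 shared dispersion. A two-sided F test was used, with Benjamini-Hochberg adjustment over all tested tiles. limma 3.58.1 on arcsine levels was an alternative. A tile gives no level in a library with under 15 calls. The median tile had between 62 and 416 calls per embryo, and counting intervals cover counting error only. In simulated data for this comparison, over 69097 tiles, 66 of 100 tiles changed by 20 points and 95 of 100 changed by 30 points were called, with 12 false calls. The 21 pairs of libraries differed by 1.05 to 1.34 times the sampling noise. At its low end this ratio alone cannot tell a repeat from a separate embryo. HET replicate 2 of 0.1 ppm, which the study left out, entered only as an alternative. That replicates are separate embryos is given by their labels.

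Tiles were annotated with GENCODE M21 by protein-coding and long noncoding genes. A tile between genes can therefore hold a gene of another type, such as a pseudogene or small RNA. Named tiles are the 20 hyper tiles with the largest difference and no overlap, at most 1 per gene, all hypo tiles up to 5, up to 3 tiles per gene list, and Tet1 and Spata18. The values of 1 of these tiles are not reported here. The embryos, gene lists and tests were chosen with earlier results of these data known. Alternatives were coverage, tile size, filters, thinning, covariates, blocks, another test and leaving out each embryo. Litter paired the embryos for the replicate block, since replicate numbers do not.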

Additional observations from a re-analysis of the deposited data

Results flagged for a closer look

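At 5 of the named tiles, both HET embryos of the 0.1 ppm diet used here lay on the other side of the embryos labelled WT than on 3 ppm, out of 72 combinations of tile and diet examined. Tiles whose groups overlap on 3 ppm were not among these combinations, but Actn1 (28.8 points, with HET at 44.3 and 46.1% and WT at 1.27 and 31.5%) and the tile near Gm12248 (18.6 points, with HET at 41.7 and 51.5% and WT at 26.6 and 29.4%) were also on the other side on 0.1 ppm without overlap. The difference between diets was not tested, and the share over all tested tiles was not counted. Each 0.1 ppm group had 2 embryos, and WT replicate 2 goes against its label at Tet1. With 2 against 2 embryos, 1 of 6 assignments puts both HET embryos on a given side. The 5 tiles are near this share of the 0.1 ppm combinations, so they are not read as a result about these tiles. HET replicate 2 of 0.1 ppm, which the study left out, was not among the embryos used. Its level was on that other side of both WT embryos near Gata5 (50.0%) and Gm12248 (46.8%), but not at Tcf4 (44.9%), near Oprd1 (71.4%), near Itih3 (80.0%), at Rab10os (13.8%) or at Actn1 (19.5%). On 0.1 ppm HET minus WT was -12.3 points at the tile near Gata5, -0.779 points at Tcf4, -10.9 points near Oprd1, 6.41 points near Itih3 and 20.99 points at Rab10os (the tile named Rab10). At Rab10os the 0.1 ppm HET embryos were at 34.8 and 39.2% and the WT embryos at 23.5 and 8.45%, and sex moves with the level of this tile. In 49 groups of 4 to 10 embryos, 0 had an embryo far from the others by Dixon's criterion, which chance meets in about 1 in 20 groups.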

How the results depend on the processing

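The mean difference of 1.05 points stayed positive in all 13 alternatives, at 1.72 with reads pooled over CpGs, 0.353 with each embryo's own CpGs and 1.04 within litters (p = 0.167, the smallest that exact test can give). Leaving out 1 embryo gave 0.875 to 1.18 points, and the smallest possible p then rises to 0.0667 or 0.1, so no such fit can pass 0.05. The same holds for the classes of 5 to 20% (2.40 to 2.69 points), 20 to 80% (4.09 to 5.10) and over 80% (0.952 to 1.52), and for KO regions of 30 ppm (4.43 to 5.07) and 0.1 ppm (4.21 to 4.83). The class under 5% had no stable sign, with -0.00397 points at 10 reads and -0.0171 to 0.0429 with 1 embryo left out. Tiles chosen on 3 ppm differed on 30 ppm by 3.11 to 9.01 points and on 0.1 ppm by -2.23 to 12.2 with 1 embryo left out, and by 9.01 on 30 ppm without WT replicate 2. Hyper tiles numbered 63 at 20 points, 226 with the litter block and 1 with limma, and 400 to 837 with 1 embryo left out. The highest count came without WT replicate 1. In the other 9 alternatives they numbered 392 to 671. Hypo tiles numbered 3 with at least 5 CpGs, 0 at 20 points, 2 with the litter block, 0 with limma and 6 to 14 with 1 embryo left out. The tile near Gm12248 turned to 1.54 points at 10 reads. Regions the authors listed for HET differed, with 1 embryo left out, by 1.66 to 5.63 (hyper) and 0.684 to 3.13 points (hypo) on 30 ppm and by 0.405 to 7.67 and 2.97 to 4.45 points on 0.1 ppm. Genes with a hyper tile changed by over 1.5 times in 5 lists. With the litter block, germline genes had 2 of 4, methylation enzymes 0 of 3, axon guidance genes 1 of 2 (as with Y-based sex) and bHLH genes 0 of 1. Without HET replicate 1, imprinted genes had 1 in place of 0, axon guidance genes 4 in place of 2 and bHLH genes 0 in place of 1. Without the filter on the standard deviation 7 of the named tiles lost their call. Of the 39 named tiles, 19 kept their call under the replicate block and 21 in every fit that left out an embryo. In the fits without 1 embryo, tiles shared all or most of their dispersion. Calls kept there say little of a tile's own spread between embryos. Setting the level classes without the WT libraries that go against their label, chosen after seeing the data, changed no call. Litter pairs the embryos only in the 2 litters with both genotypes, and whether calls lost there are smaller within litters was not tested. Depth limits small changes, as the median tile had 62 calls in the shallowest library.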
